A study of Caenorhabditis elegans with 16 samples.

Results

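22G-RNAs that pair with the sequence just before the start codon of oma-1 were followed across 6 small RNA libraries of *Caenorhabditis elegans*. They were taken by position: every listed sequence whose 5′ G pairs with base 22 to 110 of the intronless reference, after which the start codon begins. A 22-nt read placed by its 5′ G extends toward base 1, so each of these reads lies wholly in the 5′ flank. There were 120 such entries of 2372 in the 6 libraries and of 4497 in all 16 libraries of the series. They held 1373 of the 40236 listed reads of the 6 libraries and were made of 64 distinct sequences.

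The study sequenced total small RNA from synchronised whole worms with reporter genes that had lost their introns, to ask how splicing bears on small RNA silencing. Of 4 strains with oma-1::3xflag, the first carried rde-3(ne4871[null]) on chromosome I and oma-1(ne4869[intronless oma-1::3xFLAG]) on chromosome IV, and the second prg-1(ne4844[null]) and oma-1(ne4845[intronless oma-1::3xFLAG]). The other 2 had no small RNA mutation: oma-1(ne4869[intronless oma-1::3xFLAG]), and oma-1(ne4868), in which the original introns had been restored to the tagged gene. Both oma-1::gfp strains carried an intronless insertion with Cbr-unc-119(+) on chromosome II and unc-119(ed9) on chromosome III. In one, neSi75 was combined with oma-1(ne4864), a full deletion that begins upstream of the coding sequence and ends past the 3′ end of the gene. In the other, neSi74 was read with the worm's own oma-1 in place. The libraries are called here rde-3, prg-1, intronless, restored-intron, oma-1-deleted and oma-1-present. Each genotype had 1 library, so every ratio compares 2 libraries and no test between genotypes could be made. The sources used here give neither the age of the worms nor how much of the flank the deletion takes.

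oma-1 (CELE_C09G9.6; chromosome IV, 8888976 to 8890999 in WBcel235) codes for a CCCH zinc-finger protein that works, together with OMA-2, when oocytes mature. 22G-RNAs are made by RNA-dependent RNA polymerases, which copy a messenger RNA directly from its C bases, so that each small RNA begins with a G opposite a C. Worm-specific Argonautes of the WAGO group use them in silencing, and CSR-1 binds those of many expressed germline genes. rde-3 codes for a nucleotidyltransferase needed for WAGO-bound 22G-RNAs, and prg-1 for the Piwi Argonaute that binds piRNAs. Whether the 5′ flank is transcribed over its whole length is not annotated in the sources used here, and its bases were not placed in the genome.

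In the 3 libraries with the most flank reads, most of these came from a short stretch next to the start codon. On the target strand it reads as follows, from base 88 to base 110 and 5′ to 3′, with the C bases, at which a 22G-RNA can start, in capitals.
target strand: CaCatCCaCtCaaCtgCatCaat
The 5 flank sites with the most reads over the 6 libraries follow by the position of their G, as deposited reads without mismatch, with the 5′ G in capitals. They pair with bases 69 to 107 and overlap each other by 5 to 19 bases.
site 90: Gtgaatagtgtaagtaatcggg
site 93: Gatgtgaatagtgtaagtaatc
site 98: Gagtggatgtgaatagtgtaag
site 101: Gttgagtggatgtgaatagtgt
site 107: Gatgcagttgagtggatgtgaa
Sites 23 and 77 are shown since they were the sites outside that stretch with the most reads.
site 23: Gaagatgttgcgagctgtaagt
site 77: Gtaatcgggtgcagggaatgct
Site 116 is the first beyond the flank, and its reads hold 16 bases of the flank and 6 of the coding sequence.
site 116: Gttcatattgatgcagttgagt

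The flank carried many reads in 3 libraries and few in the other 3. It had 5 reads in rde-3, 764 in prg-1, 149 in the intronless library and 5 in the restored-intron library, all on oma-1::3xflag. On oma-1::gfp it had 440 reads in the oma-1-deleted library and 10 in the oma-1-present library. These came from libraries with 161, 17406, 5490, 96, 11983 and 5100 reads listed on the reference, in the same order. The low counts of rde-3 and restored-intron thus stood beside few listed reads at any position, while the oma-1-present library listed many. By the total used for ppm, restored-intron was the largest of the 6 libraries, at 5546660.0, and rde-3 the smallest, at 2481671.0. In deposited ppm, a read count scaled to a total of 2481671.0 to 5546660.0 per library, the flank stood at 2.01 (0.654 to 4.70) in rde-3 and 235 (219 to 252) in prg-1. The level was 31.0 ppm (26.2 to 36.4) in the intronless library and 0.901 ppm (0.293 to 2.10) in the restored-intron library. On oma-1::gfp it was 90.6 ppm (82.3 to 99.4) with oma-1 deleted and 1.89 ppm (0.907 to 3.48) with oma-1 present. Intervals in parentheses are 95% intervals for counting error alone, because no genotype had a replicate. Amplified reads that carry no molecular identifier are not independent molecules, so the intervals may be too narrow even for that. The sources used here do not say which reads the deposited total counts.

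The flank was also set against the library's listed reads, those placed on the reporter reference, which needs no such total. This is called below its share of the library, though it is not a share of all small RNA. It differed less between the oma-1::3xflag libraries than between those of oma-1::gfp. The flank took 3.11% (1.02 to 7.10) of the listed reads in rde-3, 4.39% (4.09 to 4.70) in prg-1, 2.71% (2.30 to 3.18) in intronless and 5.21% (1.71 to 11.7) in restored-intron. The intervals of rde-3 and restored-intron overlap both others, as 5 reads give little precision. The share was 3.67% (3.34 to 4.02) with oma-1 deleted and 0.196% (0.0941 to 0.360) with oma-1 present. The gap on oma-1::gfp was smaller with another denominator: of the reads in the flank and in the coding part that both references share, the share of the flank was 1.83 times as high with oma-1 deleted as with oma-1 present.

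Within the flank 26 of the 89 bases are C, and each of the 26 carried reads in at least 1 library. The number of C bases with reads was 5 in rde-3, 25 in prg-1, 19 in intronless and 3 in restored-intron. It was 25 with oma-1 deleted and 7 with oma-1 present. The prg-1 and oma-1-deleted libraries each left out a single C, base 70 in prg-1 and base 71 in oma-1-deleted, and the intronless library had 1 read at the first of these and none at the second. In the 3 libraries with at least 40 flank reads, 18 C bases were used in common. In prg-1, 96.2% of the C bases of the flank carried reads, against 92.7% of those in the coding part that both references share. The shares were 73.1% of the flank and 71.9% of the coding part in intronless, and 96.2% and 78.2% with oma-1 deleted. They lay farthest apart in the oma-1-deleted library. Only 6 reads in all lay on 6 positions that are not C, each with its mismatch at the first base.

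Reads were denser toward the start codon. Bases 66 to 110 held 87.6% (85.0 to 89.8) of the flank reads in prg-1, 84.6% (77.7 to 90.0) in intronless and 79.3% (75.2 to 83.0) in oma-1-deleted, with 16 of the 26 C bases, or 61.5%. The 9 C bases from 88 to 107, a stretch chosen after the values were seen and holding 34.6% of the C bases, had 76.0% (72.9 to 79.0), 69.8% (61.7 to 77.0) and 63.0% (58.3 to 67.5) in those libraries. Of the low libraries it had 2 of 5 reads in rde-3, 3 of 5 in restored-intron and 7 of 10 in oma-1-present. Sites 90, 93, 98, 101 and 107 together gave 67.0% (63.6 to 70.3) of the flank in prg-1, 64.4% (56.2 to 72.1) in intronless and 50.0% (45.2 to 54.8) in oma-1-deleted.

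Site 98 had 1 read in rde-3, 129 in prg-1, 25 in intronless and 0 in restored-intron, and 69 with oma-1 deleted against 1 with oma-1 present. It was the highest flank site of the intronless and oma-1-deleted libraries, with 16.8% and 15.7% of their flank reads, and the second of prg-1, with 16.9%. Site 93 had 1, 135, 20 and 0 reads in the same oma-1::3xflag libraries, and 59 with oma-1 deleted against 1 with oma-1 present. It led in prg-1, with 17.7% of the flank reads. Site 101 had 0 reads in rde-3, 101 in prg-1, 23 in intronless and 1 in restored-intron, and 37 with oma-1 deleted against 2 with oma-1 present. It took 13.2% of the flank in prg-1 and 15.4% in intronless, but 8.41% in oma-1-deleted. Site 107 had 0, 62, 18 and 0 reads, and 37 with oma-1 deleted against 0 with oma-1 present. Site 90 had 0, 85, 10 and 2 reads, and 18 with oma-1 deleted against 1 with oma-1 present. All 5 were picked by their reads over the 6 libraries, so high counts in prg-1, intronless and oma-1-deleted follow from the choice. The other 3 libraries had at most 2 reads at any flank site.

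Away from that stretch the highest sites were 77 and 23. Site 77 had 0 reads in rde-3, 29 in prg-1, 7 in intronless and 0 in restored-intron, and 41 with oma-1 deleted against 0 with oma-1 present. With 9.32% of the flank reads it ranked behind sites 98 and 93 alone in the oma-1-deleted library, while it took 3.80% in prg-1 and 4.70% in intronless. Site 23 had 0, 18, 7 and 2 reads, and 28 with oma-1 deleted against 1 with oma-1 present. Its 2 reads made it, with site 90, the highest flank site with restored introns. Site 81 had 0, 18, 11 and 0 reads, and 16 with oma-1 deleted against 0 with oma-1 present. Site 88 had 0, 32, 2 and 0 reads, and 22 with oma-1 deleted against 2 with oma-1 present. Site 24 is named for its 2 reads in the oma-1-present library, where no flank site had more, and it had 3 reads in prg-1 and 3 with oma-1 deleted.

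In the 3 libraries with at least 40 flank reads, the highest flank site was exceeded by 24 other positions in prg-1, by 40 in intronless and by 38 in oma-1-deleted. With restored introns, where sites 23 and 90 had 2 reads each, 5 positions had more. Per C base, the flank had 29.4 reads in prg-1 against 44.9 in the coding part that both references share, a ratio of 0.655 (0.608 to 0.704). In the intronless library it had 5.73 against 8.26, a ratio of 0.694 (0.585 to 0.819). With oma-1 deleted it had 16.9 against 18.1, a ratio of 0.936 (0.848 to 1.03), whose interval includes 1. With oma-1 present it had 0.385 against 0.779, a ratio of 0.494 (0.234 to 0.923). The ratios in rde-3, 0.938 (0.295 to 2.30), and in restored-intron, 0.924 (0.290 to 2.27), had intervals too wide to place the flank above or below the coding part. Against the 3′ flank, the sequence past the stop codon, the order changed with the library. The 5′ flank had 0.249 times its reads per C base in the intronless library (0.210 to 0.294) and 0.240 times in rde-3 (0.0759 to 0.582), but 1.43 times in prg-1 (1.32 to 1.56). With restored introns it had 0.849 times (0.253 to 2.27), with oma-1 deleted 0.937 times (0.843 to 1.04) and with oma-1 present 0.0641 times (0.0306 to 0.119).

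The letter next to the G followed the reads. Of the 26 C bases, 16 give a read that goes on with A or T after its G and 10 one that goes on with G or C. The 16 took 85.9% (83.3 to 88.3) of the flank reads on C bases in prg-1, 91.2% (85.4 to 95.2) in intronless and 83.1% (79.3 to 86.5) in oma-1-deleted, where an even spread over C bases would give 61.5%. Sites 90, 93, 98, 101 and 107 are all among them. The rest of each reference had the same lean, at 83.1% in prg-1, 87.9% in intronless and 84.9% in oma-1-deleted, so it is not particular to the flank. Where C bases stand side by side, the one nearest base 1 led in some runs only. Base 93 had 135 reads in prg-1 and 59 with oma-1 deleted, against 9 and 9 at base 94. Base 23 had 18 and 28 against 3 and 3 at base 24. At bases 40 and 41 the order was the other way, with 6 in prg-1 and 1 with oma-1 deleted at base 40 and 19 and 12 at base 41. In other runs the order differed between these libraries, but it rests on few reads per base. Bases 62, 63 and 64 had 1, 6 and 14 reads in prg-1 but 7, 5 and 3 with oma-1 deleted. In intronless they had 0, 0 and 4. Bases 69, 70 and 71 had 7, 0 and 12 in prg-1 but 2, 4 and 0 with oma-1 deleted. In intronless these had 0, 1 and 0.

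Mismatched reads were 4.71% (3.32 to 6.46) of the flank in prg-1, from 36 reads of which 22 differed at the last base. They were 2.68% in intronless and 2.50% in oma-1-deleted, from 4 and 11 reads, of which 2 and 1 differed at the last base. Over all positions, mismatched reads were 2.49% of the listed reads in prg-1, 2.19% in intronless and 3.40% in oma-1-deleted. Site 88 held many of those in prg-1, where only 18 of its 32 reads had no mismatch.

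The sites stood in a similar order in the 3 libraries with at least 40 flank reads. Over the 26 C bases, reads in prg-1 and intronless were correlated at 0.90 (Pearson) and 0.79 (Spearman). The values were 0.87 (Pearson) and 0.80 (Spearman) for prg-1 and oma-1-deleted, and 0.88 and 0.82 for intronless and oma-1-deleted. The sites share their libraries and their letters and are not replicates. The differences were in the weight of a few sites. Between prg-1 and oma-1-deleted, 5 of 19 sites with at least 10 reads in the pair took shares of the flank whose ratio had an interval that left out 1. Sites 23, 31 and 77 had less in prg-1, at 0.370 (0.207 to 0.662), 0.329 (0.139 to 0.778) and 0.407 (0.257 to 0.646) times the share, and sites 90 and 101 more, at 2.72 (1.66 to 4.46) and 1.57 (1.10 to 2.25) times. Between prg-1 and intronless there were 2 of 17, sites 31 and 81, and both had less in prg-1, at 0.223 (0.0821 to 0.605) and 0.319 (0.154 to 0.662) times the share. Between intronless and oma-1-deleted there was 1 of 14, site 101, at 1.84 (1.13 to 2.98) times the share in intronless. The intervals are not adjusted for the number of sites. Such sites were not counted over the rest of the reference, so these counts do not show whether the flank differed more or less than the rest.

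The intronless reporter in rde-3 was compared with the same reporter outside this mutant to ask whether its 22G-RNAs need this enzyme. The flank had 5 reads in rde-3, each at a different site (64, 69, 71, 93 and 98), against 149 at 19 sites in the intronless library. The level was 15.4-fold lower in rde-3 (6.44 to 48.0), or 29.8-fold on unscaled reads and 25.7-fold with the reads across the start codon included. The shared coding part was 20.8-fold lower (16.2 to 27.0), at 26.2 ppm in rde-3 against 544 ppm in intronless, and the ratio of the flank ratio to the coding ratio was 1.35 (0.536 to 3.41). The flank's share of the library was 1.14 times that in intronless (0.476 to 2.75). Of 6 flank sites with at least 10 reads in the pair, 6 had a level in rde-3 that was lower by 2-fold or more as counted, while over the whole reference this held for 99.1% of 113 such sites and 0% were at least 2-fold higher. No flank site had more than 1 read in rde-3, so the minimum of 10 fixed the flank count in advance. Where a count of 0 is set to a floor of 3 reads per library, 4 of the 6 and 90.3% of the 113 were at least 2-fold lower. At that floor sites 101 and 107, with 0 reads in rde-3, were 3.95-fold and 3.09-fold lower. Sites 81 and 90, also with 0 reads, were 1.89-fold and 1.72-fold lower. The lower ends of the intervals of these sites, taken at 0 reads, were 2.96, 2.27, 1.29 and 1.16. Sites 93 and 98 were 10.3-fold (1.65 to 427) and 12.9-fold (2.11 to 529) lower, from 1 read each. The libraries belong to library sets 5 and 9 by their labels and to lanes 7 and 3, so set and genotype cannot be told apart. Against prg-1, of its own set and lane, the flank in rde-3 was 117-fold lower (49.7 to 360). That pair differs in both small RNA mutations and in the oma-1 allele, so it does not isolate rde-3.

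The intronless reporter in prg-1 was compared with that outside this mutant to ask whether its 22G-RNAs depend on piRNAs. Flank reads were more abundant in prg-1, at 7.59 times the intronless level (6.36 to 9.10). The coding part was at 8.04 times (7.71 to 8.39), with 4373 ppm in prg-1 against 544 ppm in intronless, and the ratio of the flank ratio to the coding ratio was 0.943 (0.788 to 1.13), an interval that includes 1. The flank's share of the library was 1.62 times that in intronless (1.36 to 1.92). This ratio turned on the reads past the shared coding part. Of the reads in the flank and the shared coding part alone, the flank took 5.10% (4.75 to 5.46) in prg-1 and 5.39% (4.58 to 6.29) in intronless, a ratio of 0.946. Of 18 flank sites with at least 10 reads in the pair, 17 were at least 2-fold higher in prg-1 and 0 at least 2-fold lower, against 82.4% and 5.86% of 273 such sites over the whole reference. The exception was site 31, with 8 reads in prg-1 against 7 in intronless. Over the 17 sites with reads in both libraries the ratio of levels had a median of 6.50 and ran from 1.69 at site 31 to 28.1 (4.47 to 1168) at site 41, which had 19 reads in prg-1 against 1 in intronless. The 5 leading sites lay between 5.10 (2.98 to 9.15) at site 107 and 12.6 (6.51 to 27.2) at site 90. Site 88 was at 23.7 times (6.04 to 204), from 32 reads in prg-1 against 2 in intronless. Only 18 of the 32 were free of mismatch, while the 2 in intronless were. Here too the sets (5 and 9) and lanes (7 and 3) differ, and the prg-1 strain carries ne4845 in place of ne4869, so genotype cannot be told apart from allele or set.

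The intronless reporter was compared with the restored one to ask what the lack of introns adds. The flank was at 34.3 times the restored-intron level in the intronless library (14.4 to 107), from 149 reads in intronless against 5 in restored-intron, or 21.5 times with the reads across the start codon included. Both were read on the same intronless reference. The coding part was at 45.7 times (35.8 to 59.3), with 544 ppm in intronless against 11.9 ppm in restored-intron, and the ratio of both ratios was 0.752 (0.298 to 1.89). The share of the library was 0.521 times that with restored introns (0.219 to 1.24), an interval that includes 1, so at this depth no difference in the share of the flank alone was detectable. With the reads across the start codon included it was 0.327 times. Those reads alone were 2.73% (2.32 to 3.20) of the listed reads in intronless and 11.5% (5.86 to 19.6) in restored-intron, from 150 and 11 reads. All 6 flank sites with at least 10 reads in the pair were at least 2-fold higher in intronless, but so were 100% of 115 such sites of the reference, and 0% were at least 2-fold lower. With at most 2 reads at any flank site in restored-intron, the minimum of 10 fixed the flank count in advance. Sites 93, 98 and 107 had no read with restored introns. With the same floor of 3 reads they were 7.68-fold, 9.60-fold and 6.92-fold higher in intronless. The lower ends of their intervals, taken at 0 reads, were 5.69, 7.25 and 5.07. Site 101 was at 26.5 times (4.30 to 1092) and site 90 at 5.76 times (1.23 to 54.1). Both libraries were of set 9 and lane 3.

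Deletion of the worm's own oma-1 was compared with its presence on the intronless oma-1::gfp insertion. The flank had 440 reads with oma-1 deleted and 10 with it present, a ratio of levels of 47.9 (25.8 to 101), or 26.6 with the reads across the start codon included. The shared coding part was at 25.2 times (22.2 to 28.8), with 1179 ppm with oma-1 deleted against 46.7 ppm with it present, and the ratio of both ratios was 1.90 (1.001 to 3.60), whose lower end lies at 1. The flank's share of the library was 18.7 times as high with oma-1 deleted (10.01 to 35.0), or 10.4 times with the reads across the start codon. Of the reads in the flank and the shared coding part alone the flank took 7.13% (6.50 to 7.80) with oma-1 deleted and 3.89% (1.88 to 7.04) with it present, a ratio of 1.83. Between base 1313 and the stop codon, a part that is mostly gfp, lay 31.5% of the reads with oma-1 deleted and 81.7% with it present. All 13 flank sites with at least 10 reads in the pair were at least 2-fold higher with oma-1 deleted and 0 lower, against 69.6% and 7.29% of 247 such sites over the whole reference. No flank site had more than 2 reads with oma-1 present, so the minimum of 10 fixed the flank count in advance. Site 98 was at 75.1 times (13.0 to 3007) and site 93 at 64.2 times (11.1 to 2577), each from 1 read with oma-1 present. Sites 77 and 107, with 0 reads there, were 14.9-fold and 13.4-fold higher with that 0 set to 3 reads. The lower ends of their intervals, taken at 0 reads, were 11.6 and 10.4. The strains carry different insertions, neSi75 and neSi74, and the libraries were of sets 7 and 8 and lanes 3 and 4, so insertion, set and deletion cannot be told apart. With oma-1 present, reads of the flank can pair with the worm's own gene as well as with the insertion.

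Just beyond the flank, 3 C bases give reads that reach past the start of the coding sequence, with sites 116 and 122 the highest of them. They had 1 read in rde-3, 698 in prg-1, 150 in intronless and 11 in restored-intron, and 196 with oma-1 deleted against 16 with oma-1 present. In prg-1 and intronless the 26 C bases of the flank held about as many reads as these 3, with 52.3% (49.7 to 54.8) and 49.8% (44.0 to 55.6) of the sum of both. In oma-1-deleted the flank had 69.2% (65.4 to 72.8), an interval that lies above both. Site 116 led in prg-1 with 364 reads and in intronless with 92, each more than any site of the flank. With oma-1 deleted site 122 led with 95 reads, against 83 at site 116.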

How the data were processed

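Small RNAs were sequenced from whole worms, 1 library per genotype. cutadapt, Bowtie2 and build WBcel235 are named in the submitters' processing notes, without versions or settings. The deposited files list, per the file headers, raw read counts by the authors for each distinct sequence, its RPM value (ppm) and the reference position of its 5′ G. The files were checked: every sequence at the flank was 22 nt long and antisense with at most 1 mismatch, and RPM was the count over a single total per library. Reads with a mismatch were kept.

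From these, reads were summed per position and per part of the reference. Levels have exact Poisson intervals and shares Clopper-Pearson intervals. Ratios of levels and of reads per C base have the exact conditional interval, and other ratios an interval on the log scale. With 1 library per genotype no p-value is given. The shared coding part runs from the start codon to the last base at which both references are the same. Sites were called at 2-fold or more where the pair held at least 10 reads. Sites named are the 5 highest of each library with at least 2 reads, those with reads in all 3 libraries of at least 40 flank reads and at least 5% of the flank in any of them, and those across the start codon. Sites 24 and 88 are named by this rule, while sites 31, 40, 41, 62, 63, 64, 69, 70, 71 and 94 were singled out after their values were seen. The members and lists were chosen with earlier results of these data known. Interval code was tested on simulated counts. Alternatives changed the mismatch limit, borders, scaling, denominators and minimums. Python 3.11.15, numpy 2.4.6, pandas 2.3.3 and scipy 1.17.1 were used.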

Additional observations from a re-analysis of the deposited data

How the results depend on the processing

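No paired analysis was possible because each genotype had 1 library. Values recomputed under alternatives were called the same within the counting interval of the main value, or within 1.5 times for counts of sites. Correlations have no such interval, and of these 4 were called the same and 2 were not. Of all 123 values, 93 were called the same, 29 were not and 1 changed sides of 1. That was the flank's share in prg-1 over intronless, at 0.946 when the flank and the shared coding part alone were the denominator. With that denominator the share itself was 7.14% in rde-3, 5.10% in prg-1, 5.39% in intronless, 7.13% with oma-1 deleted and 3.89% with oma-1 present, and the ratio of these last 2 was 1.83. Counting each distinct sequence once gave shares of 7.35% in rde-3, 7.12% in prg-1, 4.98% in intronless, 4.76% with oma-1 deleted and 1.78% with oma-1 present, the ratio of these last 2 being 2.67. It gave ratios of levels of 0.441 for rde-3 over intronless, 3.09 for prg-1 over intronless, 6.34 for intronless over restored-intron and 5.59 for oma-1 deleted over oma-1 present, since it removes the read count. Unscaled reads gave 5.13 for prg-1 over intronless and 0.0336 for rde-3 over intronless. Reads across the start codon gave 0.0389 for rde-3 over intronless, 21.5 for intronless over restored-intron and 26.6 for oma-1 deleted over oma-1 present, and ratios of shares of 0.684, 0.327 and 10.4, each within the main interval. rde-3 over prg-1 of the same set, chosen after seeing the data, gave 0.00858. Per base in place of per C base, the flank stood at 0.725 times the coding part in prg-1 and at 1.04 times with oma-1 deleted. A minimum of 20 reads left 3 sites lower in rde-3, 11 higher in prg-1, 3 higher in intronless over restored-intron and 7 higher with oma-1 deleted, and a minimum of 5 gave 10 sites lower in rde-3 as counted. With counts of 0 set to 3 reads, also chosen after seeing the data, 4 sites were lower in rde-3 at the minimum of 10 and 5 at that of 5, and the other 3 comparisons had the same number of sites at the minimum of 10. The share of sites over the whole reference was taken at the minimum of 10 alone. Counts at minimums of 5 and 20 therefore have no such share beside them. Sites with at least 2 reads numbered 0 in rde-3 and 3 with oma-1 present. On the log2 scale the Pearson correlation of prg-1 was 0.79 with intronless and 0.71 with oma-1 deleted. Flank counts of 5, 5 and 10 reads in rde-3, restored-intron and oma-1-present limit every ratio and every count of sites that uses them.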
